A study of Homo sapiens with 8 samples.

Results

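A set of 10 genes of the Wnt pathway was followed in SKOV3 cells, out of 22554 features in the deposited tables. They were taken by gene name: CTNNB1, which encodes the transducer beta-catenin, the feedback inhibitors AXIN2, RNF43 and ZNRF3, the R-spondin receptor LGR4, the TCF/LEF factors LEF1, TCF7, TCF7L1 and TCF7L2, and the target gene MYC. SKOV3 is an established human ovarian cancer line. Messenger RNA was sequenced from 8 samples of this line, all grown in the same medium with fetal bovine serum. In 4 of them low-density lipoprotein (LDL), a carrier of cholesterol in blood, had been given for 48 h (50 µg/mL), and the other 4, the controls, had none added. Serum, which carries lipoproteins of its own, was in the medium of both groups. The line is the only one used, and the labels do not say whether samples of a group came from separate cultures. Every p-value therefore rests on the spread among these libraries, and that spread may be technical. The labels give no reason to look at Wnt signalling, and these genes were compared to see whether their messenger RNA differed with LDL.

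In canonical Wnt signalling a secreted Wnt protein binds a Frizzled receptor and its LRP co-receptor, and a cytoplasmic complex that marks beta-catenin for destruction is disabled. Beta-catenin then enters the nucleus and binds TCF/LEF proteins, which sit on DNA through an HMG box that reads the core CTTTG. AXIN2, RNF43 and ZNRF3 are switched on by this signal and damp it, AXIN2 as a scaffold of the destruction complex and RNF43 and ZNRF3 as ubiquitin ligases that remove Frizzled from the cell surface. LGR4 binds R-spondins, which take the ligases away. Levels of AXIN2 messenger RNA are therefore a common readout of the pathway.

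Windows of 250 bases before annotated starts were searched for the TCF/LEF core, because several of these genes are themselves known Wnt targets. RefSeq sequences on GRCh38.p14 matched 7 of the 9 genes looked up, with 11 windows; AXIN2 and ZNRF3 had no match and MYC was not looked up. CTTTG, or CAAAG on the other strand, stood in 6 of the 11 windows and in 4 of the genes. Of all 35116 windows of that length, 42.1% hold it. A longer form, CTTTGAA or CTTTGAT or CTTTGTA or CTTTGTT on either strand, each of which contains the core, stood in 1 window of TCF7 and 1 of TCF7L2, and in 12.0% of all windows. A match in letters is a description and no evidence of binding. The windows below show the contrast between the TCF7 starts looked up, called outer and inner by their order. The outer one has no core and the inner one has it at 216 and 48 bases upstream. Both TCF7 windows lie inside the gene as annotated, which begins at 134114711, and no window was searched at that end. Single windows of LEF1 and of an inner TCF7L2 start stand beside them. Capitals mark the core.
TCF7 outer start, chr5:134115363-134115612, plus strand: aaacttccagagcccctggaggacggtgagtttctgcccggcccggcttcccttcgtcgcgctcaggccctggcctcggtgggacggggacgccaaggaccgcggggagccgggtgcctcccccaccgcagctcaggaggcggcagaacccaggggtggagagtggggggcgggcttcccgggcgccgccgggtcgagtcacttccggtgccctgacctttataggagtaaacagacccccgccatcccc
TCF7 inner start, chr5:134123368-134123617, plus strand: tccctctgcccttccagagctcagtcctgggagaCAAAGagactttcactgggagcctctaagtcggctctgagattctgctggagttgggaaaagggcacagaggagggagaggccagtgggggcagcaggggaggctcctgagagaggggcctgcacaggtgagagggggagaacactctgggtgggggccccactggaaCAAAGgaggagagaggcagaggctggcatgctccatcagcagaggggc
TCF7L2 inner start, chr10:113126383-113126632, plus strand: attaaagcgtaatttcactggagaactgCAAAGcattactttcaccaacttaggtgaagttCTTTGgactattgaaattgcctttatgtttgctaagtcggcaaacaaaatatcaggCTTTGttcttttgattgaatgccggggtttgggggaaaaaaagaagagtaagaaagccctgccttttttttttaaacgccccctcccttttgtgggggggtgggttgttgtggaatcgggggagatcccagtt
LEF1, chr4:108166302-108166551, minus strand: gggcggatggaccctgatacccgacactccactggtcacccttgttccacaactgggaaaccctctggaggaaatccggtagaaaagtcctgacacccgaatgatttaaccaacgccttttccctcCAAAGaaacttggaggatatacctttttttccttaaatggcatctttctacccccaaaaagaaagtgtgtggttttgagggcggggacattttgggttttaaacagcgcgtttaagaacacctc
The count tables sum over all starts of a gene, so they do not tell the inner from the outer starts.

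Library totals were 37189698 to 44883561 counts without LDL and 34682501 to 36780334 counts with it, so all LDL libraries were shallower. Over all genes LDL sample 4 stood apart: its score on principal component 1 was -46.05, where the others scored -1.856 to 17.37. Leaving out LDL sample 1 raised the number of genes called from 10 to 149. Of 10 ovarian carcinoma markers, 8 were above 1 FPKM (the authors' fragment counts corrected for length and depth) in all 8 samples, among them the keratin gene KRT8 and PAX8; MUC16 and WFDC2 were low. Of 10 markers of blood, vessel, liver and glial cells, PTPRC, MS4A1 and HBB had a count of 0 throughout, and the list's summed FPKM was 0.42 to 0.65 in control and 0.34 to 0.56 in LDL samples.

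No Wnt feedback or TCF gene was called between LDL and control. Of the 9 with enough counts to be tested, 0 passed at an adjusted p under 0.05 by the quasi-likelihood test of edgeR, by DESeq2 or by limma voom, where edgeR called 0.0648%, DESeq2 0.32% and voom 0.0518% of all genes they tested (15432, 14665 and 15432). At an unadjusted p under 0.05 there was 1, MYC, where edgeR gave 5.59% of all genes. No gene had groups that did not overlap in CPM (counts scaled to library size with TMM factors), against 3.45% of all genes. Fitted changes lay between -0.12 and 0.34 on the log2 scale, with 6 above and 3 below 0 and a median of 0.06, beside 0.006 over all genes. For CTNNB1, ZNRF3, LGR4, TCF7, TCF7L1, TCF7L2 and MYC the 95% interval lay within 0.785-fold to 1.223-fold, and for AXIN2 and LEF1 it was wider.

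**Figure D1:**
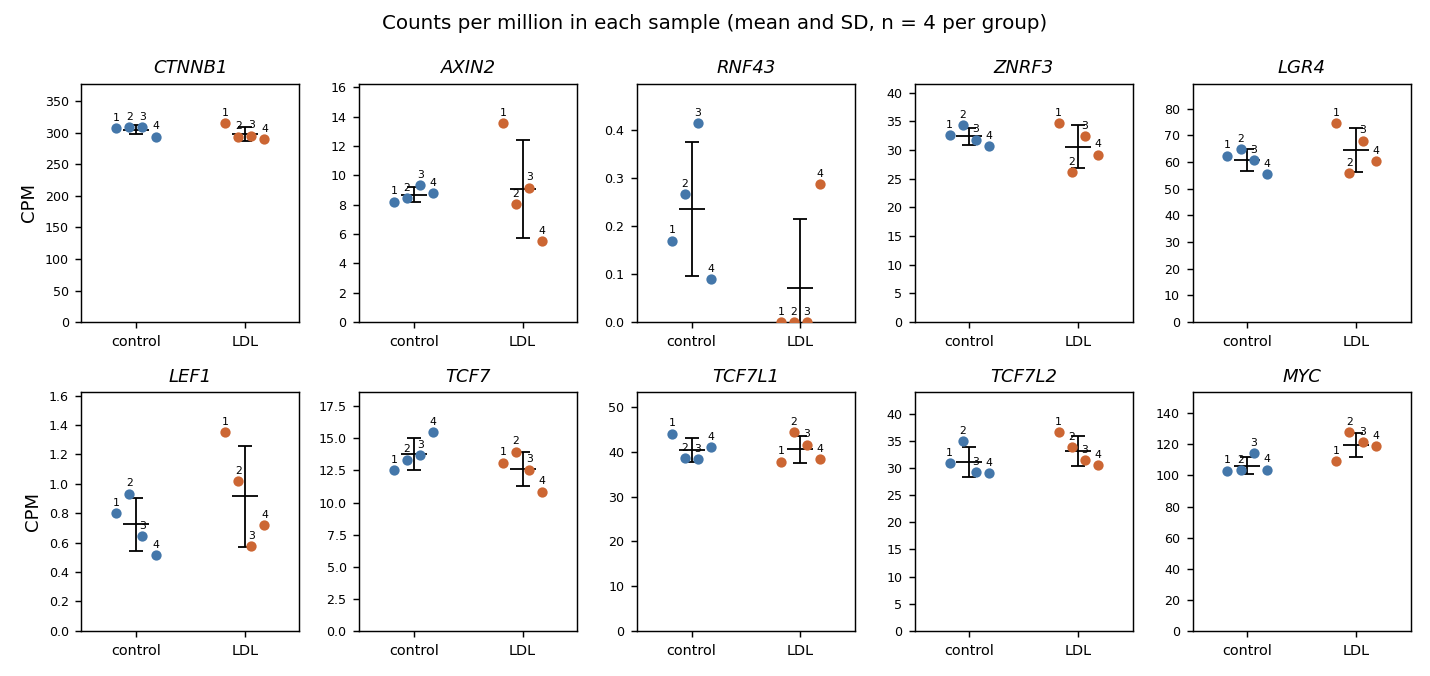
CPM of each gene (vertical axis, from 0, a separate scale for each panel) in the control and LDL samples, numbered as in the labels, with the mean and SD (n = 4 each; the lower bar of RNF43 is cut at 0). The groups overlap in all 10 panels, and AXIN2 spreads from 5.54 to 13.55 CPM in the LDL samples against 8.216 to 9.351 in the controls.

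**Figure D2:**
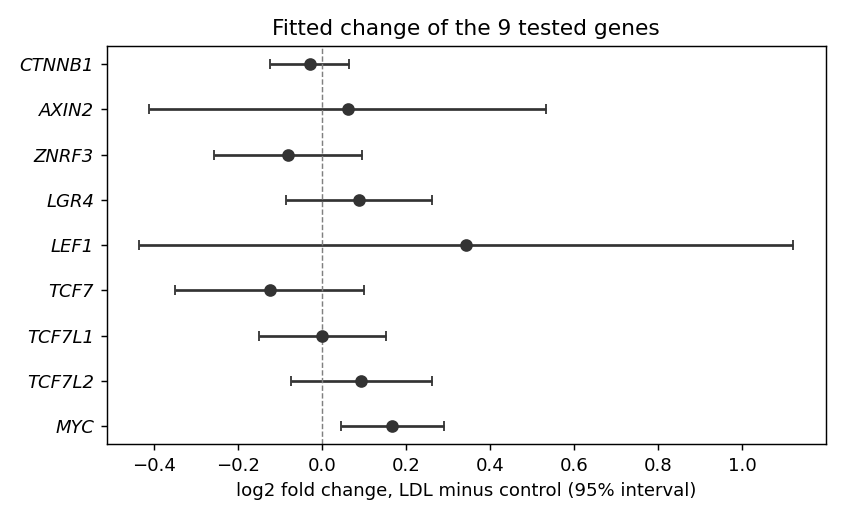
Fitted log2 fold change (horizontal axis, LDL minus control) of the 9 tested genes with 95% intervals from edgeR. The interval of MYC, 0.05 to 0.29, is the one that lies clear of 0 before adjustment, and those of AXIN2 and LEF1 are the widest.

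CTNNB1 was the most abundant of the 10. Its protein, beta-catenin, carries the Wnt signal to the nucleus and also links cadherins to the cytoskeleton. The gene (ENSG00000168036) spans chromosome 3 from 41194741 to 41260096, plus strand, in GRCh38. Controls 1 to 4 read 306.4, 308.4, 309.0 and 293.4 CPM, and the LDL samples, in the same order, read 314.5, 293.7, 295.2 and 289.5 CPM. LDL sample 1 was the highest of all 8 and LDL sample 4 the lowest. The control mean was 304.3 ± 7.32 CPM and the LDL mean 298.2 ± 11.1 CPM (SD, n = 4 each), a ratio of 0.980 with a 95% interval of 0.918 to 1.046 (log2 fold change -0.03, SE 0.0447, edgeR adjusted p = 0.954). In LDL samples its coefficient of variation was 3.72%, lower than that of most genes, whose median was 9.79%.

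AXIN2, the scaffold whose transcript serves as a readout of Wnt signalling, differed more between LDL samples than between groups. It spans chromosome 17 from 65528563 to 65561647, minus strand (ENSG00000168646). Control samples 1 to 4 were at 8.216, 8.457, 9.351 and 8.776 CPM. LDL samples 1 to 4 were at 13.55, 8.021, 9.171 and 5.54 CPM. In CPM, LDL sample 1 lay above every control, LDL samples 2 and 4 below every control, and LDL sample 3 within their range. On the FPKM scale LDL sample 3 too, at 2.121, lay below the lowest control, at 2.158. The control mean was 8.70 ± 0.491 CPM and the LDL mean 9.07 ± 3.35 CPM (SD, n = 4 each), with a log2 fold change of 0.06 (95% interval -0.41 to 0.53, edgeR adjusted p = 0.983). The coefficient of variation was 5.64% in control samples, below the median of 7.33% over all genes, and 36.9% in LDL samples, above that of 90.2% of genes. The log2 fold change came to -0.20 without LDL sample 1 (edgeR adjusted p = 0.61) and to 0.24 without LDL sample 4 (edgeR adjusted p = 0.98). With all 8 libraries it was also below 0 in limma voom, with the replicate block and in the 3 fits to FPKM, at -0.0019 to -0.089. In such bulk samples a change in the number of cells with the transcript and a change in the amount per cell cannot be told apart. An overlapping gene, AC004805.1, shares 1316 exon bases with AXIN2 on the same strand and had at most 2 counts in any library.

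ZNRF3 was the expressed ligase of the pair that removes Frizzled receptors, and RNF43 was near the detection limit. ZNRF3 (ENSG00000183579, chromosome 22 from 28883592 to 29057487, plus strand) stood at 32.57, 34.39, 31.82 and 30.75 CPM in control samples 1 to 4. It stood at 34.65, 26.15, 32.39 and 29.19 CPM in LDL samples 1 to 4. LDL samples 2 and 4 lay below all controls and LDL sample 1 above them. Its fitted log2 difference was -0.08 (SE 0.0833, edgeR adjusted p = 0.937), a ratio of 0.945 with a 95% interval of 0.837 to 1.068. It moved to -0.15 without LDL sample 1 and to -0.02 without LDL sample 2.

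RNF43 (ENSG00000108375, chromosome 17 from 58352500 to 58417595, minus strand) had too few counts to be tested. Controls 1 to 4 held 7, 10, 16 and 4 counts, and the LDL samples, in the same order, held 0, 0, 0 and 10. A count of 0 allows up to 3 counts, or 0.0816 to 0.0865 CPM in those 3 LDL libraries (counting error only). An annotated read-through gene, ENSG00000285897, shares 4326 exon bases with RNF43 on the same strand; it held 21, 0, 0 and 10 counts in control and 29, 7, 13 and 12 in LDL samples. The sum of both was 28, 10, 16 and 14 in control and 29, 7, 13 and 22 in LDL samples. That is 0.418 ± 0.184 and 0.499 ± 0.259 CPM (SD, n = 4 each; exact two-sided permutation p = 0.686), and the groups overlapped. Each of the 3 LDL libraries with no RNF43 count had counts of the read-through gene. SUPT4H1, also on the same strand, shares 143 exon bases with RNF43 and held 2283 to 3586 counts per library. Reads can be shared among these genes, so the zeros of RNF43 are given as listed and no fold is drawn from them.

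LGR4, the receptor through which R-spondins relieve the ligases, was well expressed. It spans chromosome 11 from 27365961 to 27472775, minus strand (ENSG00000205213). In controls 1 to 4 the level was 62.38, 64.88, 60.65 and 55.37 CPM, and the LDL samples, in the same order, read 74.46, 55.71, 67.97 and 60.42 CPM. LDL samples 1 and 3 lay above all controls, and the other LDL samples lay within their range. Its fitted log2 difference was 0.09 (SE 0.0821, edgeR adjusted p = 0.93), a ratio of 1.063 with a 95% interval of 0.942 to 1.20. The difference was 0.01 without LDL sample 1 and 0.15 without LDL sample 2. Its relatives LGR5 and LGR6 averaged 0.061 and 0.05 FPKM over all samples, where LGR4 averaged 11.44.

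The 4 TCF/LEF factors had shares that overlapped between the groups. On the FPKM scale, which allows genes of different length to be compared, TCF7L1 made up 50.6% ± 1.42 of the summed level of all 4 in control and 51.1% ± 3.14 in LDL samples (SD, n = 4 each). TCF7L2 made up 32.8% ± 1.67 and 33.1% ± 3.09, TCF7 15.9% ± 1.70 and 14.9% ± 0.561, and LEF1 0.741% ± 0.187 and 0.929% ± 0.324. The sum was 25.56 ± 1.27 FPKM in control and 25.57 ± 1.54 FPKM in LDL samples. LDL sample 1 held the lowest share of TCF7L1, 46.5%, and the highest shares of TCF7L2, 37.4%, and LEF1, 1.35%.

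**Figure D3:**
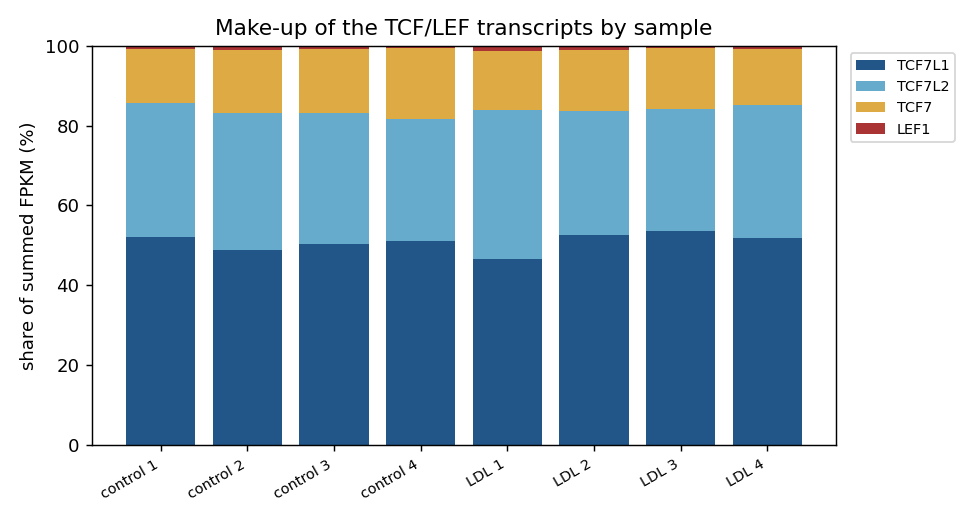
Share of the summed FPKM of TCF7L1, TCF7L2, TCF7 and LEF1 (vertical axis, percent) in each of the 8 samples. TCF7L1 takes 46.5% to 53.5% and LEF1 at most 1.35% of every bar.

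TCF7L1, a factor known mainly as a repressor of Wnt targets, was the most abundant of them. It spans chromosome 2 from 85133410 to 85310388, plus strand (ENSG00000152284). Controls 1 to 4 read 44.11, 38.55, 38.41 and 41.1 CPM, and the LDL samples, in the same order, read 37.86, 44.43, 41.64 and 38.35 CPM. The groups covered nearly the same range, with LDL sample 2 highest and LDL sample 1 lowest. Its fitted log2 difference was 0.00069 (SE 0.0714, edgeR adjusted p = 0.999), with a 95% interval of 0.901-fold to 1.111-fold.

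TCF7L2 acts as activator or repressor depending on its partners and exists in many splice forms. It spans chromosome 10 from 112950250 to 113167678, plus strand (ENSG00000148737). In controls 1 to 4 the level was 30.85, 34.98, 29.24 and 29.11 CPM, and the LDL samples, in the same order, read 36.59, 33.77, 31.49 and 30.57 CPM. LDL sample 1 exceeded every control and the other LDL samples fell within the control range. The log2 fold change was 0.09 from counts (SE 0.0794, edgeR adjusted p = 0.922) and 0.01 from log2(FPKM + 1) (limma adjusted p = 1.0). The length that the authors' FPKM implies for a gene, its count over its FPKM after scaling each library to the median gene, was 3.40 to 4.02 kb for TCF7L2 in control and 3.73 to 4.07 kb in LDL samples. Its coefficient of variation over the 8 samples was 6.10%, beside a median of 1.42% over genes with at least 20 counts in each library. For TCF7L1 it was 0.527% and for AXIN2 5.89%. The implied length of AXIN2 was 3.52 to 3.83 kb in control and 3.71 to 4.29 kb in LDL samples. Its part in the differing signs of AXIN2 from counts and FPKM was not tested. For both TCF7L2 and AXIN2 the groups overlapped in that length. AL158212.2, an antisense gene that shares 300 exon bases with TCF7L2, was not analysed here.

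TCF7, the factor known from T cells, and LEF1, its close relative, were lower. TCF7 (ENSG00000081059, chromosome 5 from 134114711 to 134151865, plus strand) read 12.53, 13.34, 13.69 and 15.49 CPM in controls 1 to 4, and 13.12, 13.98, 12.57 and 10.85 CPM in the LDL samples in the same order. LDL sample 4 lay below all controls and the other LDL samples within their range. The ratio was 0.918 (95% interval 0.785 to 1.073; log2 fold change -0.12, edgeR adjusted p = 0.925). SKP1, which shares 210 exon bases with TCF7 on the opposite strand, had 9264 to 13080 counts per library, and no source used here gives the strand setting of the counting.

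LEF1 (ENSG00000138795, chromosome 4 from 108047545 to 108168956, minus strand) was barely expressed. Controls 1 to 4 held 33, 35, 25 and 23 counts, and the LDL samples, in the same order, held 50, 35, 20 and 25. LDL sample 1 held the most and LDL sample 3 the fewest. The control mean was 0.724 ± 0.182 CPM and the LDL mean 0.916 ± 0.344 CPM (SD, n = 4 each), with a log2 fold change of 0.34 and a 95% interval of -0.43 to 1.12 (edgeR adjusted p = 0.939). Leaving out LDL sample 1 gave 0.09 and leaving out LDL sample 3 gave 0.51, so the size of the difference rests on single libraries. LEF1-AS1, which shares 279 exon bases on the opposite strand, was not analysed here.

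MYC, a growth-promoting transcription factor and a target of beta-catenin in colon cancer cells, had the smallest p of the 9 tested genes. Controls 1 to 4 read 103.1, 103.7, 114.6 and 103.8 CPM, and the LDL samples, in the same order, read 109.1, 127.9, 121.5 and 119.1 CPM. LDL samples 2, 3 and 4 lay above all controls, while LDL sample 1 lay below control sample 3. The control mean was 106.3 ± 5.55 CPM and the LDL mean 119.4 ± 7.78 CPM (SD, n = 4 each), a ratio of 1.123 with a 95% interval of 1.032 to 1.223. The unadjusted p was 0.00997, rank 197 of 15432, and the edgeR adjusted p was 0.781. The exact two-sided permutation p for CPM was 0.0571. On the FPKM scale the control samples were at 44.17, 43.51, 43.88 and 41.33 and the LDL samples at 46.66, 49.58, 50.33 and 50.01. There the groups did not overlap, as for 3.68% of the 13407 genes with a mean FPKM of at least 0.5, and the exact two-sided permutation p was 0.0286; none lower is possible with 4 against 4. Over all genes log2(FPKM + 1) gave a limma adjusted p of 0.471. The length that the FPKM implies for MYC was 2.349, 2.377, 2.575 and 2.505 kb in controls 1 to 4. In LDL samples it was 2.382 to 2.563 kb. Its coefficient of variation over the 8 samples was 3.73%, beside the median of 1.42%. Its part in the difference between the CPM and FPKM results was not tested. The log2 fold change was 0.21 without LDL sample 1, with an edgeR adjusted p of 0.0585. Without LDL sample 2 it was 0.13, with an edgeR unadjusted p of 0.0513 and an adjusted p of 0.995. Over all alternatives the adjusted p ran from 0.0585 to 0.9997.

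Ranked by mean FPKM over the 8 samples, the order was CTNNB1 at 81.41, MYC at 46.18, TCF7L1 at 12.99, LGR4 at 11.44, TCF7L2 at 8.431, ZNRF3 at 4.464, TCF7 at 3.928, AXIN2 at 2.335, LEF1 at 0.215 and RNF43 at 0.0246. Between neighbours the sample ranges overlapped for TCF7L1 and LGR4, for ZNRF3 and TCF7, and for TCF7 and AXIN2, though TCF7 exceeded AXIN2 in each of the 8 samples. AXIN1, the constitutive relative of AXIN2, stood at 5.19 to 13.6 times the FPKM of AXIN2 in LDL samples and 7.26 to 8.81 times in control samples.

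The genes did not share one pattern over the LDL samples. LDL sample 1 was the highest of the 8 samples for 6 of the 9 tested genes, CTNNB1, AXIN2, ZNRF3, LGR4, LEF1 and TCF7L2, and the lowest for TCF7L1; over all genes tested it was the highest for 16.1%. LDL sample 4 was the lowest for CTNNB1, AXIN2 and TCF7, and over all genes tested for 19.7%. In LDL sample 1 AXIN2 lay 0.64 and LEF1 0.90 above the control mean on the log2 scale. In LDL sample 4 AXIN2 lay at -0.65. MYC went the other way, nearest to the controls in LDL sample 1 at 0.04 and farthest in LDL sample 2 at 0.27. These counts were made after the values had been seen, and the part of the libraries' other differences in them was not tested.

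**Figure D4:**
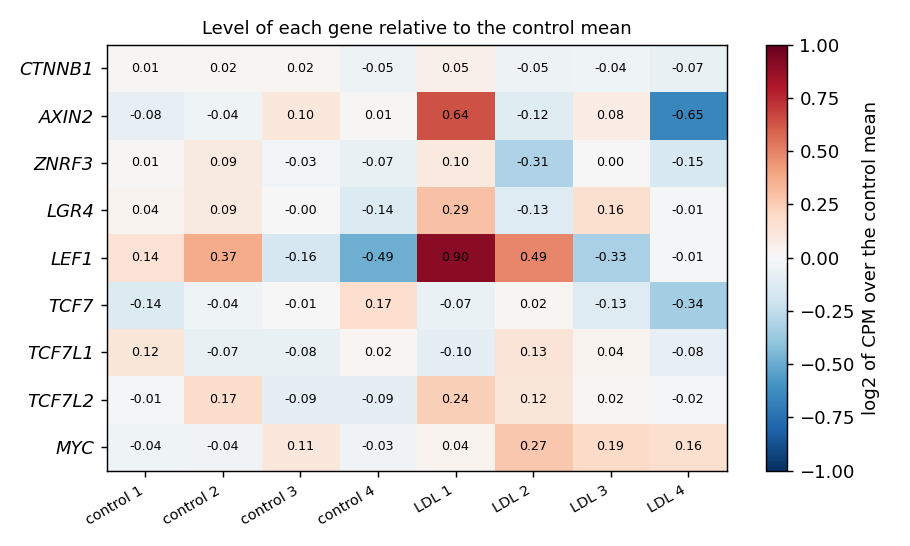
Level of each tested gene in each sample as the log2 ratio of its CPM to the control mean, with the value written in each cell and a colour scale from -1 to 1. AXIN2 reads 0.64 in LDL sample 1 and -0.65 in LDL sample 4, while the controls lie between -0.08 and 0.10.

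Other genes of the pathway were taken from 8 lists set by role, 141 genes in all, of which 114 were tested. None passed over all genes in edgeR and none in limma voom. In DESeq2 2 of the 105 with an adjusted p passed, WNT7B and ID2, both lower, where 47 of all 14665 genes (0.32%) passed, 30 of them lower. At an unadjusted edgeR p under 0.05 were 7 of the 114, of which 1 was higher and 6 lower, beside 5.59% of all genes. The groups did not overlap for 9 of the 114, 4 higher and 5 lower, beside 3.45% of all genes. The median log2 fold change was -0.04, with 42 above and 72 below 0, beside 0.006 over all 15432 genes, of which 8064 lay above and 7368 below 0.

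**Figure D5:**
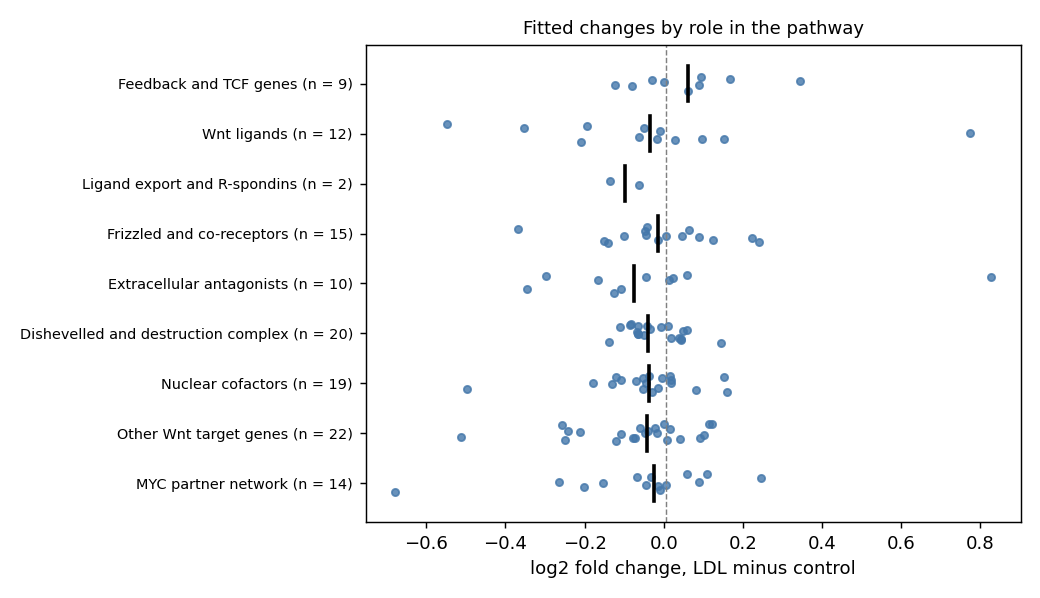
Fitted log2 fold change (horizontal axis, LDL minus control) of each tested gene, by role in the pathway, with the list's median as a black bar and the median of all genes as a dashed line. The 9 feedback and TCF genes centre on 0.06 and the other lists on -0.10 to -0.01.

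Ligands were led by WNT7B, which averaged 44.39 FPKM, and WNT7A, a close relative, at 22.07. Of 19 Wnt genes 12 were tested and 0 passed in edgeR, with WNT7B as the 1 at an unadjusted p under 0.05. WNT7B read 190.3, 186.2, 197.6 and 209.7 CPM in controls 1 to 4, and 174.3, 172.2, 168.0 and 170.8 CPM in the LDL samples in the same order. Every LDL sample lay below every control (log2 fold change -0.19, edgeR unadjusted p = 0.000891, adjusted p = 0.32). DESeq2 gave an adjusted p of 0.0297, and edgeR without LDL sample 1 gave 0.04997. The other 16 alternatives did not call it, and over all 18 the adjusted p ran from 0.0297 to 0.9997. PORCN, the acyltransferase that makes Wnt proteins competent for export, averaged 57.91 FPKM. It spanned 114.1 to 121.1 CPM without LDL and 104.7 to 106.9 CPM with it, again without overlap (log2 fold change -0.14, edgeR adjusted p = 0.784). Of all genes 3.45% had groups without overlap. WNT7B and PORCN were named for the smallest p of their lists, a choice that favours such groups. Only 2 of the 6 genes in the list of PORCN were tested. The R-spondin genes RSPO1, RSPO2, RSPO3 and RSPO4 were at or below 0.02 FPKM on average and none was tested.

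Among 18 receptor genes 15 were tested, 0 passed in edgeR and 0 had an unadjusted p under 0.05. FZD8 had the smallest p, with a log2 fold change of 0.24 (edgeR adjusted p = 0.879). FZD7 had nearly the same p and went the other way, with a log2 fold change of -0.14 (edgeR adjusted p = 0.879). PTK7, a pseudokinase co-receptor, was the most abundant at 65.99 FPKM (log2 fold change -0.04). Of 18 extracellular antagonists 10 were tested, and again 0 passed and 0 had an unadjusted p under 0.05. DKK1, which blocks LRP co-receptors and is itself a Wnt target, was the most abundant at 108.3 FPKM and had the smallest p. It averaged 214.2 ± 12.4 CPM without LDL and 196.3 ± 16.4 CPM with it (SD, n = 4 each; log2 fold change -0.13, edgeR adjusted p = 0.879).

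All 20 listed genes of Dishevelled and the destruction complex were tested and 0 passed in edgeR, with 0 at an unadjusted p under 0.05 and a median log2 fold change of -0.04. TNKS, a tankyrase that sends axin for degradation, had the smallest p (log2 fold change -0.14, edgeR adjusted p = 0.879). CSNK1D, a casein kinase, was the most abundant at 76.69 FPKM (log2 fold change -0.04). AXIN1 spanned 64.96 to 70.03 CPM without LDL and 70.08 to 72.13 CPM with it. The groups did not overlap, as for 3.45% of all genes, though 70.03 and 70.08 CPM nearly met. Its log2 fold change was 0.06 (edgeR unadjusted p = 0.285, adjusted p = 0.93). AXIN1 was singled out after its values were seen, as the relative of AXIN2.

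Of 19 nuclear cofactors all were tested and 0 passed in edgeR, with 3 at an unadjusted p under 0.05. TBL1XR1, a subunit of corepressor complexes that also binds beta-catenin, averaged 112.7 ± 7.91 CPM without LDL and 125.9 ± 7.80 CPM with it (SD, n = 4 each; log2 fold change 0.16, edgeR adjusted p = 0.822). CTNNBIP1, which blocks the contact of beta-catenin with TCF factors, and the acetyltransferase gene CREBBP were the other 2, with log2 fold changes of -0.18 and -0.12. TLE5, a short Groucho relative, was the most abundant at 156.6 FPKM (log2 fold change 0.02).

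Of 27 other Wnt target genes 22 were tested and 0 passed in edgeR, with ID2 as the 1 at an unadjusted p under 0.05. ID2, an inhibitor of helix-loop-helix factors that other pathways also control, read 15.95, 14.27, 16.04 and 15.04 CPM in controls 1 to 4, and 10.2, 9.386, 11.39 and 12.0 CPM in the LDL samples in the same order. Every LDL sample lay below every control (log2 fold change -0.51, edgeR adjusted p = 0.109), and DESeq2 gave an adjusted p of 0.00254. Of all genes 3.45% had groups without overlap, and ID2 was named for the smallest p of its list. Without LDL sample 1 or LDL sample 4 the edgeR adjusted p was 0.0407 or 0.0284, and without control sample 3 it was 0.566; over all 18 alternatives it ran from 0.00254 to 0.566. NKD1, a feedback inhibitor that binds Dishevelled, spanned 9.501 to 11.22 CPM without LDL and 7.463 to 10.47 CPM with it. SP5, a direct target of beta-catenin in many tissues, averaged 0.131 FPKM.

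MYC works as a partner of MAX and is opposed by the MXD proteins and MNT. All 14 listed genes of this network were tested and 0 passed in edgeR, with MLXIP as the 1 at an unadjusted p under 0.05. MLXIP, a glucose-sensing relative, averaged 184.4 ± 5.77 CPM without LDL and 165.8 ± 10.4 CPM with it (SD, n = 4 each; log2 fold change -0.15, edgeR adjusted p = 0.74). MAX was the most abundant of the 14 at 21.78 FPKM, with a log2 fold change of 0.11 from counts (edgeR adjusted p = 0.882) and -0.01 from log2(FPKM + 1). MYCL averaged 1.92 FPKM and MYCN 0.13 FPKM.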

How the data were processed

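Per the labels' protocols, stranded poly(A) libraries were made from total RNA of 4 control and 4 LDL samples. HISAT2, featureCounts, DESeq2 1.26.0 and the build GRCh38 appear in the submitters' processing notes without roles; for annotation and strand setting, no source used here gives them. The deposited counts are whole numbers handled as estimated counts, since 55.17% of values from 1 to 20 were even, and were not rounded further. Of the 22554 features, 2557 carry an MSTRG label in place of a gene name. None was removed for that, so shares of all genes are shares of all features tested. FPKM values, which the authors had normalized for gene length and depth before they were deposited, served for levels and alternatives. Genes were tested with edgeR 4.0.16 (quasi-likelihood, robust, TMM, filterByExpr, group only) in R 4.3.3 over 15432 features, with Benjamini-Hochberg adjustment; SEs came from the F statistic. DESeq2 1.42.0, limma 3.58.1, other factors and filters, the sample number as a block and each sample left out were alternatives. Single genes had exact permutation tests. The test was also run on simulated counts with 1 common spread for all genes and both groups. In the data the LDL samples spread more, with a median coefficient of variation of 9.79% against 7.33% in controls. That run therefore does not cover the wider spread. Chi-square per degree of freedom between replicates was 6.84 to 28.9. It assumes plain counting error and the counts are estimated, so it cannot tell whether samples were technical repeats. Depth was 34682501 to 44883561 counts; intervals for zeros cover counting error only. Coordinates came from GENCODE 29 on GRCh38.

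The 10 genes and all lists were chosen with earlier results of these data known. Named genes were the 10, then from each of 8 pathway lists up to 3 called genes or the one with the smallest p, and the most abundant, and the most abundant of 2 marker lists (KRT8 and CDH5, the latter at 0.221 FPKM on average). Other names, such as WNT7A, AXIN1, CTNNBIP1, NKD1 and SP5, were chosen after their values were seen. One listed gene is not reported here.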

Additional observations from a re-analysis of the deposited data

Results flagged for a closer look

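Among the 25 named genes, 50 groups of 4 samples were examined for a sample far from the other 3, and 3 were found; chance alone gives about 1 in 20 groups. CTNNB1 in control sample 4 was at 293.4 CPM, below the other controls at 306.4 to 309.0, with a gap of 0.833 that barely passed. MYC in control sample 3 was at 114.6 CPM, above the other controls at 103.1 to 103.8. RNF43 in LDL sample 4 was at 0.287 CPM, where the other 3 LDL libraries had a count of 0. With such ties the gap fills the range whatever the value, so the rate of 1 in 20 does not hold for RNF43.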

How the results depend on the processing

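No gene of the 10 passed under any of the 18 alternatives, where 8 to 10 of them could be tested. Samples sharing a number did not deviate together (correlations of -0.101 to 0.0602 over genes), so the numbers are not taken to pair them; the replicate block gave 0 of the 10 genes and 2 calls over the whole table, against 10. The whole-table count was 47 in DESeq2, 5 from log2(FPKM + 0.1) and 2 from log2(FPKM + 1) with no minimum, and 2 to 149 with each sample left out in turn. Pathway genes called were 2 in DESeq2 and 0 to 2 with each sample left out. The exact test had 1 gene under 0.05 from FPKM, MYC, against 0 from CPM. Of 24 named genes with a test, 18 kept the sign of their log2 fold change under each alternative that tested them (18 alternatives, but 15 for LEF1 and 16 for CDH5). AXIN2 turned to -0.0019 in limma voom, -0.0055 with the replicate block, -0.049 from log2(FPKM + 1) with or without a minimum and -0.089 from log2(FPKM + 0.1), and ran from -0.20 to 0.24 with each sample left out. TCF7L1 turned to -0.0017 with DESeq2 size factors, -0.0079 with upper-quartile factors, -0.0081 without a filter, -0.0055 with a minimum of 1 CPM, -0.0025 in DESeq2 and -0.0027 in voom, and ran from -0.049 to 0.039. With each sample left out PTK7 ran from -0.11 to 0.021, TLE5 from -0.0065 to 0.047 and MMP7 from -0.34 to 0.20. MAX turned to -0.0103 from log2(FPKM + 1) with or without a minimum and to -0.0107 from log2(FPKM + 0.1). The cause was not tested. The fewest counts per library were those of RNF43, at 0 to 16, and LEF1, at 20 to 50; whether depth sets their spread was not tested.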

Other observations

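MMP7, a matrix protease gene and the most abundant of the other Wnt targets at 134.6 FPKM, also differed more within the LDL group than between groups. It was at 142.9, 211.9, 144.6 and 156.1 CPM in control samples 1 to 4 and 219.3, 171.8, 171.8 and 45.3 CPM in LDL samples 1 to 4. As for AXIN2, LDL sample 1 was the highest of the 8 samples and LDL sample 4 the lowest. CCND1, the cyclin D1 gene, ran the other way, at 481.5 CPM in LDL sample 4 and 346.8 CPM in LDL sample 1, with controls at 367.0 to 398.6 CPM. These patterns were picked out, and CCND1 chosen, after the values were seen. Over all genes tested LDL sample 1 was the highest for 16.1% and LDL sample 4 the lowest for 19.7%.

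Over the 8 samples AXIN2 was compared with each of the other 8 tested genes on log2 CPM, chosen once the values were known. The closest was CTNNB1, with Pearson r = 0.718 (exact permutation p = 0.0171, adjusted over 8 relations 0.137) and Spearman rho = 0.738 (exact permutation p = 0.0458, adjusted 0.367), so it did not pass. Without LDL samples 1 and 4, the farthest from the median of AXIN2, r was 0.12. Leaving out the extremes also narrows the range of AXIN2, so that value cannot tell whether the relation rests on those samples. The r of AXIN2 with ZNRF3 was 0.564, with LGR4 0.602 and with MYC -0.266 (adjusted permutation p of 0.415, 0.411 and 0.632).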
